A study of Mus musculus with 502 samples.

Results

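The 9 genes described here were Cd79a, Cd79b, Ms4a1, Cd22, Fcer2a, Fcmr, Cxcr5, Mzb1 and Pax5, genes of the B cell receptor complex and of B cells more widely. They were chosen by symbol from the 46603 gene rows of the count table, and all 9 had a read in at least 1 of the 502 cells. The cells were Cd45+ leukocytes that excluded propidium iodide, sorted from kidneys of wild type CD1 mice, an outbred stock, about 3 weeks of age. Kidneys were not perfused, so that leukocytes of the blood could be among the cells. They were digested fresh or after being kept whole at 4 °C in HTS-FRS, a hypothermic storage solution, for 6 h or for 1, 2, 3 or 4 days. Both kidneys, or parts of them at days 3 and 4, came from the same mouse for a digestion, and which mouse gave a cell is not labelled. Each timepoint was therefore taken as 1 sample, cells were not replicates, and no test between timepoints could be made. A code in each label, taken here as a library pool, splits the fresh cells into 75 of pool IM793 and 81 of pool IM834. Pool IM793 also held the 76 cells kept for 6 h and the 78 kept for 2 days, and pool IM834 held the 75 cells of day 1 and the 82 cells of day 3. The 35 day 4 cells were spread over pools IM834, IM790 and IM793. Whether the pools of the fresh cells, or those of day 4, held cells of the same mouse is not labelled. Of 317 index pairs in the labels, 55.8% were used in more than 1 pool. Total gene counts ran from 1759 to 1895431 per cell, with a median of 695188.

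The B cell receptor is a membrane immunoglobulin held by a heterodimer of Cd79a and Cd79b, whose cytoplasmic tails start the signal when antigen binds. Ms4a1 (CD20) is a B cell membrane protein, Cd22 is an inhibitory lectin that binds sialic acid, Fcer2a (CD23) is the low-affinity receptor for IgE found on mature follicular B cells, and Fcmr is a receptor for IgM. Cxcr5 is the chemokine receptor that guides B cells to follicles, Mzb1 is an endoplasmic reticulum protein that helps antibody assembly and secretion, and Pax5 is the transcription factor that holds B cell identity.

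To measure the 9 genes in cells that they did not choose, cells were gated on the antibody genes. An Ig+ cell had at least 10 reads of the heavy chain genes Ighm and Ighd together and at least 10 reads of the light chain genes Igkc, Iglc1, Iglc2 and Iglc3 together. There were 75 Ig+ cells (14.9% of 502, exact 95% interval 11.9 to 18.4). The same minimum on at least 2 of Cd3e, Cd3d and Cd3g, on at least 2 of C1qa, C1qb and C1qc, or on both S100a8 and S100a9 gave Cd3+ cells (20.9% of all cells), C1q+ cells (24.9%) and 40 S100a8/9+ cells (7.97%). A further 6 cells passed 2 or more gates and are called mixed, and the remaining 30.1% passed none and are called ungated. The gate had a clear gap, as the scarcer chain had at least 16 reads in Ig+ cells, with a median of 3553, and at most 5 in cells that did not pass it. A heavy chain alone was not specific, since 37.3% of all cells had 10 or more heavy chain reads with fewer than 10 light chain reads, and no cell showed the reverse. Ebf1, a transcription factor that acts with Pax5 in B cell commitment and was not used in the gate, had a read in 54 of the 75 Ig+ cells and in 3 of the 421 cells that were neither Ig+ nor mixed.

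Sequence just upstream is shown for the gene read in nearly every Ig+ cell, Cd79a, and for Fcer2a, whose share of Ig+ cells differed most of the 9 genes between fresh and day 1 and between 6 h and day 2. Both stretches are RefSeq sequence of GRCm38.p6, printed 5′ to 3′ on the strand of the gene and ending 1 base before the annotated gene. Capitals in Cd79a mark CAAGGGA, the core of an Ebf1-type motif, and the E-box CAGGTG, and capitals in Fcer2a mark the TATA motif TATAAA.
Cd79a, chr7:24897247-24897380: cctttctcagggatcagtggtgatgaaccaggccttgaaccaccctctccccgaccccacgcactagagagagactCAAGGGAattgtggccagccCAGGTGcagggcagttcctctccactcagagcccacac
Fcer2a, chr8:3694176-3694424: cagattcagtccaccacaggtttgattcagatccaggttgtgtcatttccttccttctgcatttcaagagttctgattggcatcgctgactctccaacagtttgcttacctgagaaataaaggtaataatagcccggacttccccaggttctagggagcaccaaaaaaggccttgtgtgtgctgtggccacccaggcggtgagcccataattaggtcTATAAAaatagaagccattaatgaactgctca
The motifs were chosen after the windows were seen and were searched on both strands in the 250 bases before RefSeq start sites. TATAAA began 33 bases before the start of Fcer2a. CAAGGGA is in 4.21%, CAGGTG in 17.2% and TATAAA in 12.4% of 32851 such windows. The octamer ATTTGCAT, found in antibody gene promoters, is in 1.60% of all windows and was in none of the 7 windows matched to 5 of the 9 genes. These matches are descriptions of letters only.

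Genomic positions of the 9 genes are those of GENCODE M21 on GRCm38. Cd79a lies on chromosome 7 from 24897381 to 24902197 on the plus strand and Fcmr on chromosome 1 from 130865669 to 130880791 on the plus strand. The others lie on the minus strand, with Cd79b on chromosome 11 from 106311341 to 106314762, Ms4a1 on chromosome 19 from 11249675 to 11266241, Cd22 on chromosome 7 from 30865402 to 30880342, Fcer2a on chromosome 8 from 3681737 to 3694175, Cxcr5 on chromosome 9 from 44511787 to 44561877, Mzb1 on chromosome 18 from 35647267 to 35649367 and Pax5 on chromosome 4 from 44524757 to 44710487. Counting ignored the strand, and 57.2% of the exon bases of Mzb1 also belong to exons of another gene in the annotation, so Mzb1 counts are uncertain. The same overlap was 9.50% for Cd22, 8.60% for Pax5, 3.30% for Cxcr5 and 0% for the other 5 genes.

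Cd79a and Cd79b were the most widely detected of the set and were read together. Cd79b had a read in 75 of 75 Ig+ cells (100%, interval 95.2 to 100) and Cd79a in 73 (97.3%, 90.7 to 99.7), and both were read in 73. Their levels in Ig+ cells, as reads per 1000000 gene counts of the cell (rpm), had a median of 3099 rpm for Cd79a, from 0 to 8460, and of 2736 rpm for Cd79b, from 2.00 to 8916. Over the 75 Ig+ cells the Pearson correlation of log2(rpm + 1) between them was 0.61, the highest of the 36 pairs of the set. It was 0.42, still the highest, over the 73 Ig+ cells with a read of both. Over all 502 cells the gene most like Cd79a among 10400 genes read in at least 20 cells was Igkc (r = 0.98), and the r with Cd79b was 0.90. Correlations over cells are given as descriptions, as these cells share libraries and depth and most of them are at 0 for both genes.

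**Figure D1:**
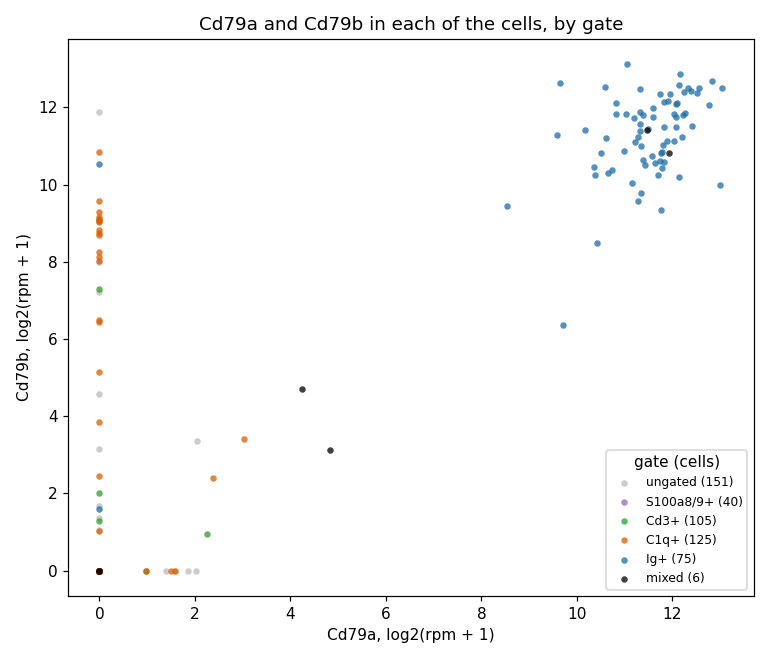
Each point is 1 of 502 cells, with log2(rpm + 1) of Cd79a across and of Cd79b upward, coloured by gate. The Ig+ cells form 1 group high in both genes, 17 C1q+ cells with at least 10 reads of Cd79b lie on the line of no Cd79a, and the pair of Ig+ cells on that line are the cells without Cd79a.

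The 2 Ig+ cells with no read of Cd79a stood apart in other ways. One, at 6 h, had only 21412 gene counts, with 32 reads of Cd79b, 2 of Cd22 and 1 of Mzb1. The other, at day 1, had 1 read of Cd79b and 375 rpm of Mzb1, beside 913 reads of Ighm, 89 of Igkc and 299 of Iglc3. That cell also had 2355 reads of Siglech, 286 of Flt3 and 2528 of Irf8, where Siglech and Flt3 are markers of dendritic cells, and Siglech was read in no other Ig+ cell.

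Over all timepoints together, the other 7 genes were each missing from a sizeable share of Ig+ cells. This varied by timepoint. Of 16 fresh Ig+ cells, 16 had a read of Ms4a1 and of Pax5, and 15 of Cd22. Fcer2a was read in 14 of the fresh cells, Fcmr in 13, Cxcr5 in 11 and Mzb1 in 10. Among surface proteins, Ms4a1 was read in 55 of 75 Ig+ cells (73.3%, 61.9 to 82.9), Fcmr in 50 (66.7%, 54.8 to 77.1), Cd22 in 45 (60%, 48.04 to 71.1), Fcer2a in 44 (58.7%, 46.7 to 69.9) and Cxcr5 in 37 (49.3%, 37.6 to 61.1). Pax5 was read in 46 (61.3%, 49.4 to 72.4) and Mzb1 in 42 (56%, 44.1 to 67.5). These 7 intervals overlap in a chain, so their order is loose, while the intervals of Cd79a and Cd79b lie above all of them. Where a gene was read it was usually well above 1 read, as 43 of 44 cells with Fcer2a and all 50 with Fcmr had at least 10 reads. Pax5 was the exception, with 36 of 46 cells at 10 or more reads.

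Levels between genes were compared per kilobase of exon (rpkm), as median over the 75 Ig+ cells with zeros included. Cd79a had 2127 rpkm and Cd79b 1912, followed by Fcmr with 434, Fcer2a with 238.8, Ms4a1 with 201.5, Mzb1 with 52.98, Cd22 with 18.5, Pax5 with 1.38 and Cxcr5 with 0. Among only the cells with a read, Cxcr5 had a median of 306 rpkm, Cd22 of 204.8 and Pax5 of 36.5. Ranges over cells overlapped between every pair of neighbours in this order. The order below Cd79a and Cd79b also depended on the timepoint and the measure, while these 2 genes had the highest medians at fresh, 6 h, day 1 and day 2. In the 16 fresh cells Fcer2a had a median of 711 rpkm, Fcmr 594, Ms4a1 519, Cd22 144.9, Mzb1 119.5, Pax5 44.8 and Cxcr5 7.42. In reads summed over the 75 cells, Cxcr5 at 219.97 rpkm was above Cd22 at 142.7 and Pax5 at 35.2.

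The reads of the set were concentrated in Ig+ cells. Ig+ cells held 98.04% of the Cd22 reads, 97.9% of Mzb1, 97.6% of Cd79a, 97.1% of Fcmr, 96.8% of Fcer2a, 95.9% of Ms4a1, 94.1% of Cd79b, 94.1% of Pax5 and 88.9% of Cxcr5. The median depth was 721172 gene counts in Ig+ cells, against 706746 in Cd3+, 614340 in C1q+ and 709272 in S100a8/9+ cells. In S100a8/9+ cells no read of any of the 9 genes was found in 40 cells, which allows a share of up to 7.5%. Among Cd3+ cells, 4 (3.81%) had a read of Cd79b, 4 of Cxcr5, 3 of Ms4a1 and 2 of Cd79a. Mzb1 had 0 reads in all 421 cells that were neither Ig+ nor mixed.

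Several genes of the set were read together almost only in Ig+ and mixed cells. Ig+ cells had 2 to 9 genes of the set, with a median of 6, and 63 of 75 had at least 5. By timepoint the median was 8 when fresh (7 to 9), 5 at 6 h, 5 at day 1 and 6 at day 2. All 9 genes were read in 7 Ig+ cells, 4 of them fresh, 1 at day 1 and 2 at day 2. Of the 421 cells outside the Ig gate with mixed cells left out, 363 had none of the 9 genes, 52 had 1 and 6 had 2 or more. The single gene was Cd79b in 30 of those 52. At a minimum of 10 reads a gene, only 1 of the 421 cells had 2 or more. The 3 cells among them with 4 or more genes had at most 4 reads of any gene of the set. Of 6 mixed cells, 3 had all 9 genes, with 2339 and 2251 reads of Cd79a in the day 2 and fresh cells and 1 to 33 reads per gene in the day 3 cell.

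**Figure D2:**
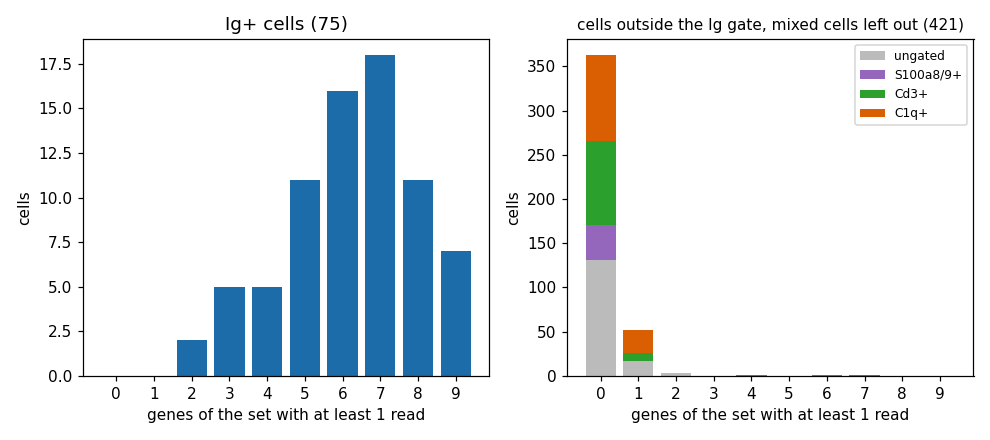
Bars give the number of cells (vertical axis) by how many of the 9 genes had at least 1 read (horizontal axis), for 75 Ig+ cells on the left and for 421 cells of the other gates and ungated cells on the right. Ig+ cells have 2 to 9 genes with a median of 6, while 363 of the 421 other cells have none.

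Cd79b differed from Cd79a in C1q+ cells, which carry complement genes typical of resident macrophages. Cd79b had a read in 22 C1q+ cells (17.6% of them, 11.4 to 25.4), and in 17 (13.6%, 8.13 to 20.9) it had at least 10 reads, from 32 to 1407 with a median of 293. Cd79a had a read in 5 C1q+ cells (4%, 1.31 to 9.09), with at most 3 reads in a cell. It reached 10 reads in 0 C1q+ cells, which allows a share at that minimum of up to 2.4%. The 17 cells had 0 reads of the other 8 genes and 0 light chain reads. Their median level was 453 rpm of Cd79b, against 2736 rpm in Ig+ cells, and their median total was 768751 gene counts, against 603917.5 in the other C1q+ cells.

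Cells of this kind were found at every timepoint, with 2 among 15 fresh C1q+ cells, 1 among 5 kept for 6 h and 3 among 22 kept for 1 day. Later there were 4 among 15 on day 2, 6 among 55 on day 3 and 1 among 13 on day 4. The intervals of these shares overlap. The ratio of the pair differed between the gates, as Ig+ cells had 185618 reads of Cd79a and 173055 of Cd79b, while C1q+ cells had 7 of Cd79a and 6443 of Cd79b.

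Few other cells outside the Ig gate held many reads of the set. Cxcr5 reached 1672 reads in an ungated cell at 6 h that also had 1808 reads of Nkg7, and 1430 reads in an ungated cell at day 2 with 646 reads of Cd4, 286 of Gata3 and 310 of Rora. A fresh Cd3+ cell had 523 rpm of Cxcr5. These 3 cells held nearly all of the 3362 Cxcr5 reads outside the gate, and they had no more than 1 read of the other 8 genes. A further ungated cell at 6 h had 280.5 rpm of Ms4a1 and 147.2 rpm of Cd79b, beside reads of Xcr1, Clec9a and Flt3, which mark dendritic cells. A C1q+ cell at day 4 had 34 reads of Cd22. Besides the 17 C1q+ cells and this dendritic-marker cell, 4 cells had at least 10 reads of Cd79b, each with 0 reads of the other 8 genes and of the light chains. An ungated cell at day 3 had 742 reads of Cd79b (3760 rpm), above the median of Ig+ cells. A pair of ungated cells at day 1 had 255.3 and 22.9 rpm, and a fresh Cd3+ cell had 154.9 rpm. Of Ighm, the day 1 cell at 255.3 rpm had 1340 reads, the dendritic-marker cell 710 and the fresh Cd3+ cell 1. The day 3 cell and the other day 1 cell had 0 reads of Ighm.

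Ig+ cells were unevenly spread over timepoints and pools. When fresh they made up 16 of 81 cells in pool IM834 (19.8%, 11.7 to 30.1) and 0 of 75 in pool IM793, which allows a share of up to 4%. They were 9 of 76 cells at 6 h (11.8%, 5.56 to 21.3) and 29 of 78 at day 2 (37.2%, 26.5 to 48.9), both in pool IM793. In pool IM834 they were 15 of 75 (20%, 11.6 to 30.8) on day 1, 4 of 82 (4.88%, 1.34 to 12.02) on day 3 and 2 of 19 on day 4. In the cells sampled, the share of Ig+ cells was thus unlike between the 2 pools of fresh cells, as well as between timepoints. The intervals cover the counting of cells only, so no difference between pools or storage times beyond these samples is concluded. In the fresh cells Cd79b was read in 1 of 75 cells of pool IM793 and in 21 of 81 of pool IM834. The values that follow are therefore those of Ig+ cells. Differences between timepoints were taken only within a pool, and values of timepoints from different pools are set side by side without comparison. Fresh and 6 h Ig+ cells were never in the same pool, so that storage and pool cannot be told apart between them. Within a pool each timepoint was still 1 sample with no mouse labelled. Storage and mouse therefore cannot be told apart in the pairs compared within a pool.

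Cd79a and Cd79b had high levels at every timepoint. The median of Cd79a was 3089 rpm in 16 fresh cells (1338 to 4489), 2344 in 9 cells at 6 h (0 to 5115), 2018 in 15 at day 1 (0 to 4405) and 3603 in 29 at day 2 (800.5 to 8460). The 4 cells at day 3 had 5995, 3496, 4545 and 3508 rpm of Cd79a, and the 2 cells at day 4 had 2563 and 2118. Of these 6 cells, all of pool IM834, 2 of day 3 lay above every fresh and day 1 cell. The median of Cd79b was 2043 rpm when fresh (358 to 4437), 3658 at 6 h (1059 to 5902), 2188 at day 1 (2.00 to 4436) and 3061 at day 2 (649 to 6589). At day 3 Cd79b was at 5801, 1799, 7429 and 1393 rpm and at day 4 at 5678 and 8916 rpm. Both day 4 cells lay above every fresh and day 1 cell in Cd79b, while the ranges of fresh and day 1 cells, and those of 6 h and day 2 cells, overlapped for each gene.

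**Figure D3:**
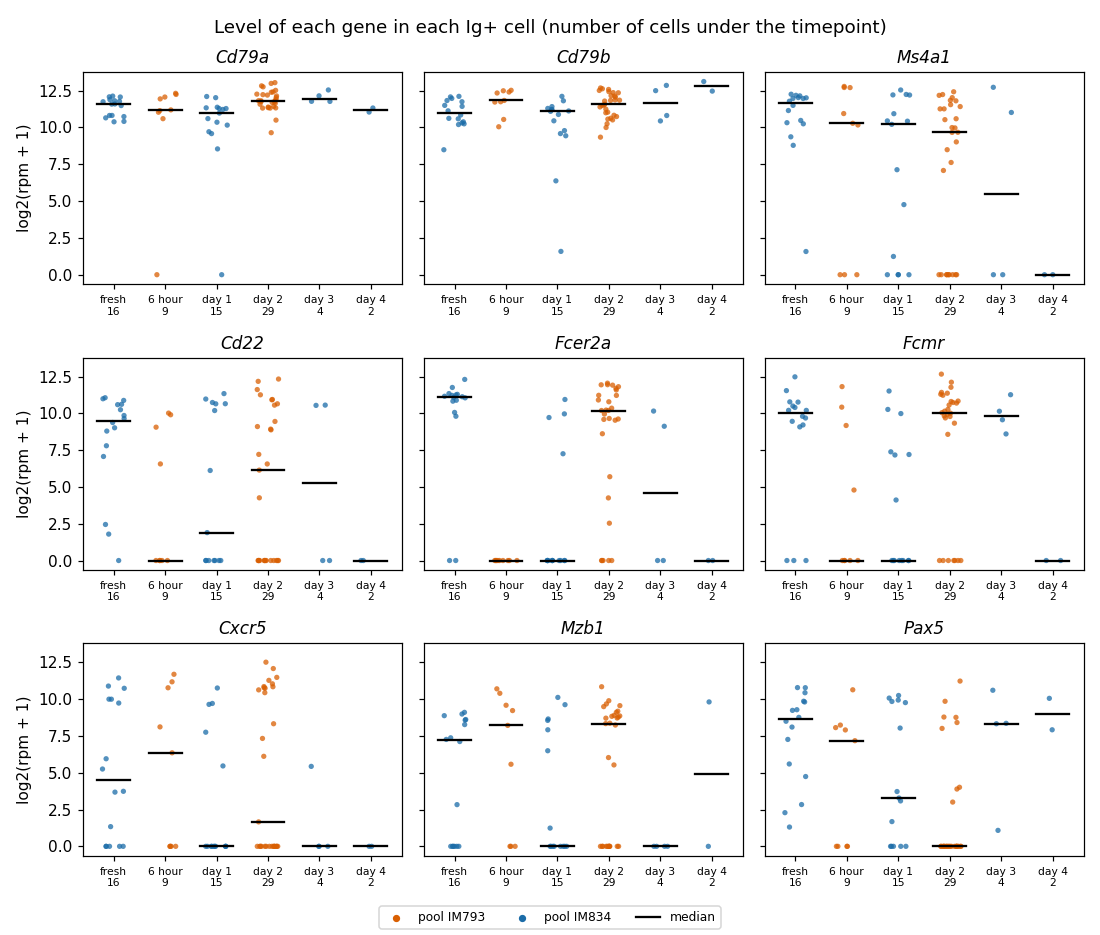
Each panel shows 1 gene, with log2(rpm + 1) on the vertical axis, 1 point for each of the 75 Ig+ cells by timepoint, coloured by pool, and a black line at the median. Cd79a and Cd79b are high at all timepoints, Fcer2a is at 0 in all 9 cells at 6 h and in 11 of 15 at day 1, and the other genes range from 0 or a few rpm to over 1000 rpm.

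Levels of the other genes spread widely over the Ig+ cells of a timepoint. Ms4a1 had a median of 3213 rpm in fresh Ig+ cells (1.98 to 4899), 1247 at 6 h (0 to 7076), 1187 at day 1 (0 to 5986) and 815 at day 2 (0 to 5505). The day 3 cells, in the order used for Cd79a, were at 6793, 2078, 0 and 0 rpm of Ms4a1, and both day 4 cells at 0. All 16 fresh cells and 11 of 15 day 1 cells of pool IM834 had a read of Ms4a1.

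Cd22, the inhibitory lectin, had a median of 731 rpm when fresh (0 to 2132), 0 at 6 h (0 to 1032), 2.72 at day 1 (0 to 2588) and 69.6 at day 2 (0 to 5140). Fcmr had a median of 1031 rpm when fresh (0 to 5700), 0 at 6 h (0 to 3597), 0 at day 1 (0 to 2922) and 1055 at day 2 (0 to 6481). At 6 h Fcmr was read in 4 of 9 cells. At day 3 Cd22 was at 1486, 0, 1505 and 0 rpm and Fcmr was above 0 in each cell, at 754, 2458, 387 and 1128 rpm. Neither was read in the day 4 cells.

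Cxcr5 had medians of 24.7 rpm when fresh (0 to 2776), 80.8 at 6 h (0 to 3298), 0 at day 1 (0 to 1727) and 2.16 at day 2 (0 to 5829), and of the 6 late cells 1 had a read, at 42.2 rpm. Mzb1 had medians of 145.3 rpm when fresh (0 to 548), 296 at 6 h (0 to 1661), 0 at day 1 (0 to 1109) and 323 at day 2 (0 to 1834), and of the late cells 1, at day 4, was at 897 rpm. Pax5 had medians of 396 rpm when fresh (1.48 to 1761), 143.7 at 6 h (0 to 1587), 8.73 at day 1 (0 to 1214) and 0 at day 2 (0 to 2395). Pax5 was read in all 6 late cells, at 320, 1554, 1.12 and 327 rpm on day 3 and at 1061 and 240.7 rpm on day 4. Ranges over cells overlapped between timepoints for each of these genes.

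Of the 9 genes, Fcer2a had the largest difference in detection between fresh and day 1 Ig+ cells and between those of 6 h and day 2. In pool IM834 it was read in 14 of 16 fresh Ig+ cells (87.5%, 61.7 to 98.4) and in 4 of 15 at day 1 (26.7%, 7.79 to 55.1). The fresh cells had a median of 2197 rpm, from 0 to 5049, and the day 1 cells a median of 0, from 0 to 1963. In pool IM793 it was read in 0 of 9 Ig+ cells at 6 h, which allows a share of up to 33.3%, and in 24 of 29 at day 2 (82.8%, 64.2 to 94.2), with a median of 1167 rpm and a highest level of 4232. At day 3 the 4 cells were at 0, 1137, 0 and 556 rpm, and both cells at day 4 were at 0. In each pool the counting intervals of the pair of shares do not overlap. These intervals count cells and not mice, so with 1 sample per timepoint no difference between storage times is concluded from them. Levels in single cells overlap, since 2 fresh and 5 day 2 cells also had none.

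Summed over Ig+ cells, Fcer2a was at 1959 counts per 1000000 gene counts (CPM) when fresh (exact Poisson interval 1930 to 1988) and at 207.6 CPM at day 1 (197.9 to 217.6). Of the day 1 reads, 46.9% came from 1 cell. At day 2 the sum was 1489 CPM (1474 to 1504). At 6 h there was no read in 7924460 gene counts of 9 cells. No fold is given for that pair, as 9 cells allow a share with Fcer2a of up to 33.3%.

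Shares of cells with a read were set beside those of all genes, a comparison chosen after seeing the data. The genes used had to be read in 10 or more cells of a pair, which left 1684 for day 1 and fresh and 1931 for 6 h and day 2. From fresh to day 1 the share of Ig+ cells with Fcer2a was lower by 60.8 points, and 11 of the 1684 genes (0.653%) were lower by 50 points or more, while 0.772% were higher by as much. At 6 h the share was lower than at day 2 by 82.8 points, where 5 of the 1931 genes (0.259%) were lower by 50 points or more and 1.04% higher. Fcer2a had reads in enough cells to be used through the group where it was high, with 14 of its 18 cells fresh in the first pair and all 24 at day 2 in the second, so nothing is read from its place among the genes of either pair. The other 8 genes were not lower by 50 points in either pair. Thinning all cells to 100000 gene counts left both Fcer2a differences as they were.

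**Figure D4:**
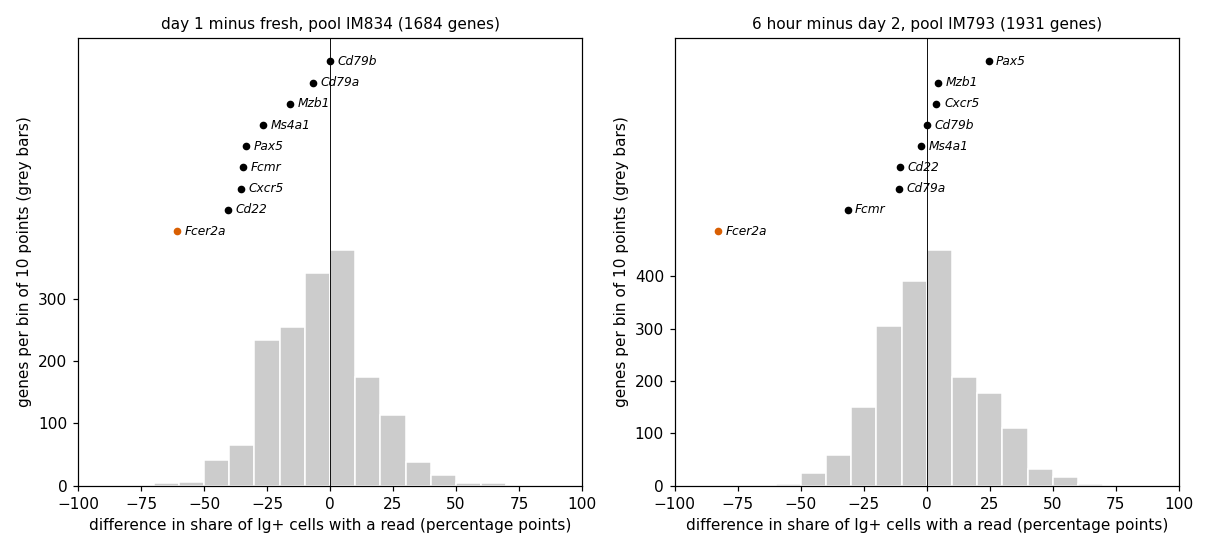
Grey bars count genes by the difference in the share of Ig+ cells with a read, in percentage points, for day 1 minus fresh on the left and 6 h minus day 2 on the right, and points mark the 9 genes at their values, with heights only to separate the names. Fcer2a, in orange, lies at -60.8 points on the left and -82.8 points on the right.

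Cd79b was read in every Ig+ cell of both fresh and day 1 kidneys, and the shares of the remaining 7 genes were lower at day 1, without a test. The median difference from fresh to day 1 was -33.3 points over the 9 genes and -3.75 points over the 1684 genes. Cd22 went from 15 of 16 to 8 of 15, Cxcr5 from 11 to 5, Fcmr from 13 to 7, Pax5 from 16 to 10, Ms4a1 from 16 to 11, Mzb1 from 10 to 7 and Cd79a from 16 to 14. None of these pairs had counting intervals that did not overlap. In pool IM793 Pax5 went the other way from Fcer2a, with 5 of 9 cells at 6 h and 9 of 29 at day 2. Fcmr was read in 4 of 9 and 22 of 29, Cd22 in 4 and 16, Ms4a1 in 6 and 20, Cxcr5 in 5 and 15, and Mzb1 in 6 and 18.

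Median totals of Ig+ cells were 517830 gene counts when fresh and 501003 at day 1, and 938592 at 6 h and 904194 at day 2. Ig+ cells had a median of 1827 genes when fresh, 1796 at day 1, 1893 at 6 h and 1660 at day 2.

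Log2 ratios of the summed CPM between day 1 and fresh Ig+ cells were taken for the 4346 genes whose 2 sums each reached 50 counts. Fcer2a was at -3.24, Fcmr at -2.21 and Cxcr5 at -1.02. The other 6 genes were within 2-fold, with Cd79a at -0.61, Ms4a1 at -0.59, Cd79b at -0.48, Pax5 at -0.31, Cd22 at -0.30 and Mzb1 at 0.29. Past 2-fold down were thus 3 of 9 genes, where the background was 25.3% of all genes, and 0 of 9 were past 2-fold up, where it was 23.3%. Over all genes the ratios had a median of -0.07 and an SD of 1.59, so that only Fcer2a and Fcmr lay more than 1 SD below the median. A single cell held 57.1% of the day 1 reads of Fcmr and 51.3% of those of Cxcr5, and without the top cell of each gene Fcer2a was at -3.96, Fcmr at -3.01 and Cxcr5 at -1.52. The ratio of Mzb1 was -0.12 without its top cell. Without the shallow 6 h cell and the day 1 cell with Siglech, Cxcr5 was at -0.93 and Fcer2a at -3.15. Sums scaled by TMM put Cxcr5 at -0.95 and DESeq2 size factors put it at -0.93, so that under each of these 3 alternatives 2 of 9 genes were past 2-fold down. When cells were averaged on the log2(rpm + 1) scale rather than summed, 9 of 9 were past 2-fold down, beside 19.6% of all genes, their median was -2.83, and Mzb1 turned from 0.29 to -1.31.

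Fcer2a and Ighd, the IgD heavy chain of mature B cells, had similar patterns over cells. Ighd was the gene most like Fcer2a over all 502 cells (r = 0.80 among 10400 genes) and also the gene most like Fcmr (r = 0.82). In Ig+ cells, the 44 with Fcer2a had a median of 2908 rpm of Ighd (0 to 8865) and the 31 without had 79.2 rpm (0 to 3627). The order for Ighm was the opposite, at 5862 and 10641 rpm, over timepoints that differ in how many cells had Fcer2a. Within timepoints, fresh cells with Fcer2a had a median of 4585 rpm of Ighd (14 cells) and those without 1271 (2 cells). At day 1 the medians were 924 rpm in 4 cells with Fcer2a and 30.2 in 11 without, and at day 2 they were 2800 in 24 cells and 451 in 5. The cells with Fcer2a were thus higher in Ighd in median at fresh, day 1 and day 2, while over all timepoints the ranges overlap. Medians of Ighm in cells with and without Fcer2a were 4574 and 7895 rpm when fresh, 5723 and 8110 at day 1, and 7363 and 12436 at day 2. At 6 h, where no cell had Fcer2a, Ighd was read in 6 of 9 cells with a median of 952 rpm. At day 2, in the same pool, Ighd was read in 26 of 29 cells with a median of 2631 rpm. In pool IM834 Ighd was read in 16 of 16 fresh cells (median 3691 rpm) and in 11 of 15 at day 1 (median 34.8 rpm).

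For the other genes, the same measure over all 502 cells gave mostly genes of the gate or of the set. The gene most like Cd79b and Ms4a1 was Cd79a (r = 0.90 and 0.82), the one most like Cd22 was Iglc2 (0.77), and the one most like Mzb1 was Igkc (0.70). Cxcr5 was most like Ly6d (0.65), a surface protein of lymphoid cells, and Pax5 was most like Cd79a (0.71), followed by Ly6d (0.71). Within the 75 Ig+ cells the correlations between pairs of the set were weak, with 0.37 for Fcer2a and Fcmr, the highest after that of Cd79a and Cd79b, and -0.23 for Mzb1 and Pax5, the lowest. Weak values in sparse counts are not read further.

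Other genes of the pathway were taken from lists by role. Of 12 genes of B cell receptor signalling, 5 were read in at least 50% of Ig+ cells. The most widely read was Syk (56 of 75), the tyrosine kinase that binds the phosphorylated tails of Cd79a and Cd79b, and the least was the complement receptor Cr2 (16 of 75). Between fresh and day 1, 1 of the 12 was past 2-fold up, Pik3ap1 at 1.84 on the log2 scale, and 4 were past 2-fold down, Cr2 at -3.19, Bank1 at -1.48, Btk at -1.13 and Cd81 at -1.12. The median of the 12 was -0.02, against -0.07 over all genes. Without the day 1 cell with Siglech, Btk was at -2.44 and Cr2 at -3.10. Of 8 inhibitors of the signal, 4 were read in at least 50% of Ig+ cells, led by Ptpn6, a tyrosine phosphatase, in 54 cells. Ptpn6 was not particular to Ig+ cells, as it was read in 64.8% of the 421 others. Lilrb4a was read in 0 of 75 Ig+ cells and in 49.4% of the others. Of the 6 inhibitors compared, 0 were past 2-fold up and 2 down, the IgG receptor Fcgr2b at -1.27 and Fcrl1 at -1.10, with a median of -0.32.

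Of 11 B cell transcription factors, 4 were read in at least 50% of Ig+ cells. Ebf1 was the most widely read, in 54 Ig+ cells, and Pou2af1, a coactivator of octamer factors, was the least, in 24. Between fresh and day 1, 1 factor was past 2-fold up, Spib at 4.01, and 2 were past 2-fold down, Pou2f2 at -1.15 and Bcl11a at -1.05, with a median of 0.20. Spib was at 4.04 without the cell with Siglech. Of 11 genes of surface, survival and homing, 7 were read in at least 50% of Ig+ cells, with Cd37 and Cd74 in 69 cells each and Cd40, the receptor for T cell help, in 22. Here 3 were past 2-fold up, Cd24a at 2.02, the activation marker Cd83 at 1.94 and Cd40 at 1.37, and 2 were past 2-fold down, Tnfrsf13b at -2.46 and Cd38 at -1.24, with a median of -0.51. The counts of these lists are to be read against the background of 25.3% down and 23.3% up.

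Of 6 plasma cell genes, only Irf4 was read in at least 50% of Ig+ cells, in 41 of 75. Jchain and Tnfrsf17 had 0 reads in the 75 cells, which allows a share of up to 4%, Prdm1 had a read in 1 and Sdc1 in 3. Mzb1, which is high in plasma cells and also made in B cells, was read in 42 of these cells. Both plasma cell genes that could be compared were past 2-fold up at day 1, Irf4 at 2.92 and Xbp1 at 1.18, beside 23.3% of all genes. Without the cell with Siglech they were at 2.81 and 1.09. Xbp1 was read in 20% of Ig+ cells and in 37.1% of the 421 others, and Irf4 in 6.89% of the others. Nothing is concluded about plasma cells from these 2 genes.

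Markers of other cell types were also counted in Ig+ cells. Of the 4 NK cell genes 3 had no read in the 75 cells, and of the 4 dendritic genes 2 had none, with the day 1 cell holding the highest summed level of 5271 rpm. Cells that passed the Ig and another gate had been set apart as mixed, so low levels of the Cd3, C1q and S100a8/9 genes in Ig+ cells follow from the gates. Umod, a transcript of kidney tubule cells, was read in 10 of the 75 Ig+ cells and in 8 of the 421 cells neither Ig+ nor mixed. Of the 10, 8 were of day 2, 1 of 6 h and 1 of day 1, the last with 421 reads. Among the other kidney genes counted, Slc34a1 and Aqp1 were read in 0 Ig+ cells, Lrp2 in 1, and Kap and Miox in 2 each. The part of Umod in the values of the 9 genes was not tested.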

How the data were processed

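Per the methods, the authors trimmed reads of single cells (a SmartSeq2-type protocol, no molecular identifiers) to 75 bases, removed duplicates with picard, aligned with STAR to GRCm38, and counted with HTSeq in intersection-strict mode without regard to strand. Cells under 1000 reads were dropped (tool versions not given in the sources used here). Deposited were the raw counts, 1 column for each of 502 cells, in 46700 rows. The 97 rows that name no gene (96 of ERCC and 1 vector, 0.140% of counts) were left out.

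The 9 genes and all lists were chosen with earlier results of these data known. Genes named are the 9, the gate genes, examples of each list (highest and lowest share of Ig+ cells) and the 3 genes most like each of the 9 by Pearson correlation. All kidney genes counted are named. List genes past 2-fold and genes named in single cells were chosen after their values were seen. Some genes of the lists are not reported here and were left out of their counts. The total gene counts of a cell served as divisor (rpm, log2(rpm + 1)). Shares have exact Clopper-Pearson and sums exact Poisson intervals (95%), and a count of 0 allows up to 3 counts. Reads are not independent molecules, so intervals and limits cover counting error only. Timepoints were compared as shares and as log2 ratios of summed CPM (prior count 1, at least 50 counts in both sums, at least 10 Ig+ cells in each), within a pool. At 6 h there were 9 Ig+ cells, so the planned ratio of day 2 over 6 h was not made. Doublets were not called, and cells in more than 1 gate were set apart. Thinning to 100000 gene counts left out 8 cells, 1 of them Ig+. The ratio code was run on Poisson counts drawn around the fresh sum with planted changes. That run had no variation between cells or mice, so it checks the arithmetic only. Python 3.11.15, pandas 2.3.3, numpy 2.4.6, scipy 1.17.1, R 4.3.3, edgeR 4.0.16 (TMM) and DESeq2 1.42.0 (size factors) were used.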

Additional observations from a re-analysis of the deposited data

How the results depend on the processing

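No paired analysis was possible because cells carry no replicate number shared between timepoints and each timepoint was taken as 1 sample. Alternatives covered the read minimum, thinning, the gate minimum, summed rpm in place of reads, the scaling of sums, the top cell of each gene, and, chosen after seeing the data, leaving out the 2 Ig+ cells that stood apart. The 3 of 9 genes past 2-fold down at day 1 kept their direction under the alternatives run, and genes of the role lists were only recomputed without the cell with Siglech. With at least 10 reads, the share of Ig+ cells with Pax5 was 48% and the share of other cells with 2 or more of the genes 0.238%. Leaving out the 2 cells that stood apart, which are the Ig+ cells with no read of Cd79a, gives 100% for Cd79a by that choice alone. With summed rpm, Ig+ cells held 97.3% of Cd79a, 93.04% of Cd79b, 95.4% of Ms4a1, 96.8% of Fcmr, 89.4% of Cxcr5, 97.7% of Mzb1 and 93.7% of Pax5. With the mean of log2(rpm + 1), which weights cells at 0 heavily, 9 of the 9 genes were past 2-fold down at day 1, where 19.6% of all genes were, their median was -2.83, and Mzb1 went from 0.29 to -1.31. Tolerances were the counting interval for shares and ratios of 1 gene, 1.5 times for counts and shares of genes past 2-fold, 0.5 for the median log2 ratio and 10 points for differences of shares. Of all alternatives of the overall values 12 were outside these, and of those of single genes and timepoints 50. For Fcer2a at day 1 against fresh the log2 ratio ran from -7.17 to -3.15 over the alternatives. The number of Ig+ cells, from 2 to 29 per timepoint, and 1 sample per timepoint limit every comparison.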
